A study of Drosophila melanogaster with 27 samples.

Results

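Glycolysis splits glucose into pyruvate in the cytoplasm through a chain of enzymes, each of which hands its product to the next. In insects, as in other animals, it supplies energy quickly and feeds carbon into lipid, glycogen and amino acid synthesis, and in *Drosophila* larvae it is known to run at a high rate during growth. The genes examined here were chosen by name from the annotation of the array, as those whose probe set is assigned to a listed glycolytic enzyme and to no other gene. Of the 10 enzymes listed, 7 met this rule, each with 1 probe set, out of 13966 probe sets on the array. They are *Pgi* (phosphoglucose isomerase), *Pfk* (phosphofructokinase), *Ald1* (aldolase), *Gapdh1* (glyceraldehyde-3-phosphate dehydrogenase), *Pgk* (phosphoglycerate kinase), *Pglym78* (phosphoglycerate mutase) and *Eno* (enolase). *Tpi* shares its probe set with another gene, and *Gapdh2* and *Ldh* have no probe set under their names in the annotation used, so these 3 were not analysed here. In that annotation 1196 probe sets have no symbol and 327 have several, so a missing name does not show that the array lacks the gene.

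RNA was measured in whole *w1118* animals, a white-eyed laboratory strain, at 9 stages with 3 arrays each, 27 arrays in all, and every group carried this genotype with no treatment. Wandering larvae of the last instar had dark blue guts at -18 h and clear guts at -4 h after feeding on dyed food, prepupae were taken at pupariation (0 h) and 2, 4, 6, 8 and 10 h later and pupae at 12 h, and each sample held 10 animals. The steroid 20-hydroxyecdysone (20E) rises before pupariation and triggers it, and a later, smaller rise in the prepupa precedes head eversion. In RNA of whole animals, fewer cells of a tissue and less RNA per cell cannot be told apart.

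Intensities are linear values on the authors' normalized scale, given as mean ± SD (n = 3 arrays). All 7 genes lay above the floor of 60.26 intensity units in every array, and array medians lay between 249.4 and 277.3. The larval arrays were the least alike, with correlations between replicates down to 0.845 at -18 h and 0.904 at -4 h, where later stages stayed at or above 0.947. The arrays that stood apart were -18 h replicate 2 and -4 h replicate 1. A gene was called changed when the limma test over all 27 arrays gave an adjusted p under 0.1 and the change was at least 1.5-fold. Probe sets differ in their response, so levels are compared only within a gene. Each comparison shares the 3 arrays of its earlier stage with the one before it, and every comparison with the larva at -18 h rests on the same 3 arrays.

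All 7 genes changed over the 9 stages by the F-test of limma, where 49.5% of all 12854 tested probe sets did. The median range between the highest and the lowest stage was 1.32 (log2) for the 7 genes and 0.65 for all tested probe sets. *Ald1* had the widest range, 4.99-fold (adjusted p = 3.3e-11), followed by *Pglym78* with 4.58-fold and *Eno* with 3.29-fold. *Pfk* (2.17-fold) and *Pgi* (2.24-fold, adjusted p = 0.023) had the narrowest. *Ald1*, *Gapdh1*, *Pgk*, *Pglym78* and *Eno* were highest in the -18 h larva and *Pfk* at 4 h. *Pgi* was about as high at 6 h (1360 ± 466) as at 10 h (1340 ± 264), its highest stage on the log2 scale by a margin far inside the spread of the arrays. The course had a fall in the late larva, a rise of some of the enzymes in the early prepupa and a further fall toward the pupa.

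**Figure D1:**
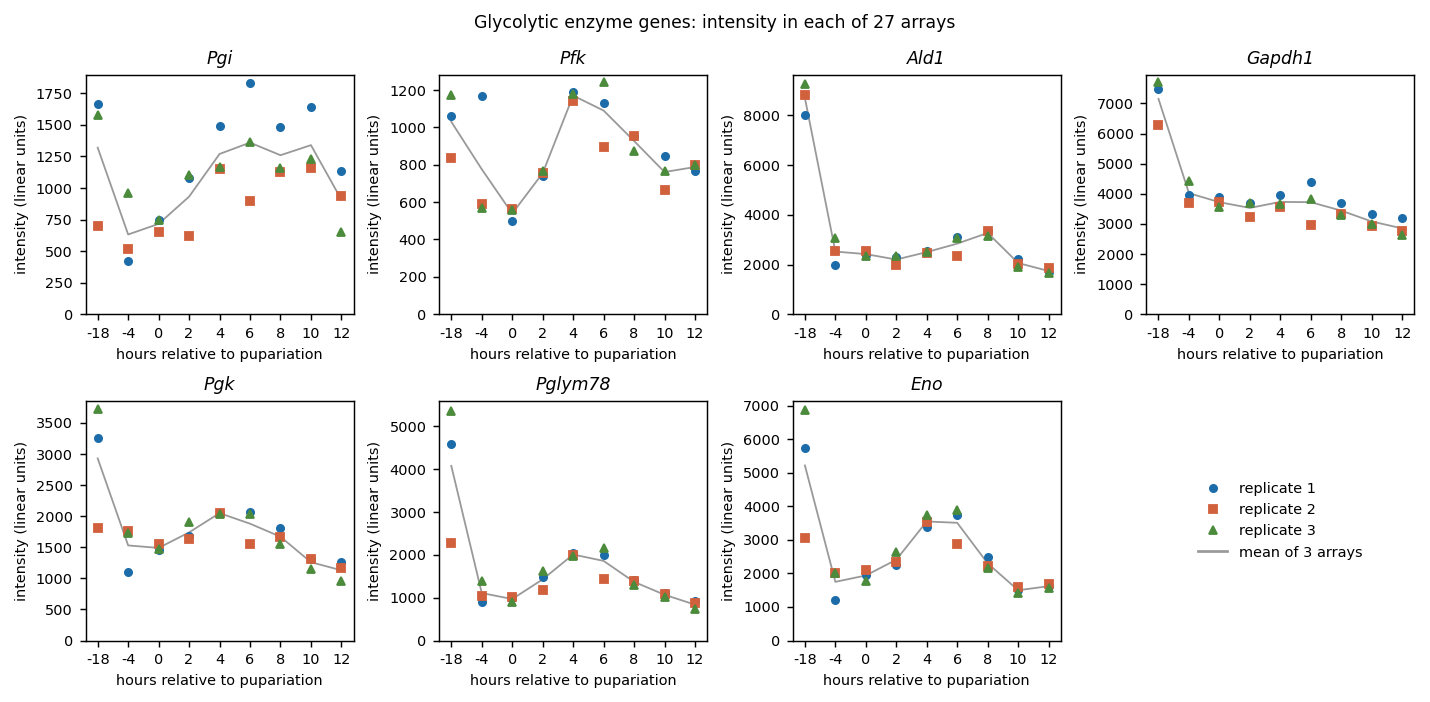
Intensity (linear units, axis from 0) of each glycolytic gene in the 27 arrays against stage in hours relative to pupariation; symbols are the 3 replicate arrays and the line joins stage means. *Ald1* falls from 8700 at -18 h to 2520 at -4 h and does not exceed 3355 in any later array, while *Pfk* and *Pgi* stand at 1170 and 1270 at 4 h, against 1030 and 1320 at -18 h.

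The first interval, -4 against -18 h, covers the rise of 20E in the late larva and the end of feeding. Of the 7 genes 6 fell and none rose, where 3.66% of all tested probe sets fell and 9.86% rose. The median change of the 7 was -1.05 (log2), against 0.01 for all tested probe sets. The falls of the aldolase gene and of *Pglym78* and *Eno*, whose products act in sequence late in the pathway, were the largest of the 7. Over the same interval 7 of 10 measured muscle genes and 7 of 9 midgut genes fell too (4 of 9 midgut genes under quantile normalization), and their part in this result was not tested.

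*Ald1*, which cleaves fructose-1,6-bisphosphate into triose phosphates, gave 8008, 8823 and 9263 in the 3 arrays at -18 h and 1974, 2532 and 3056 at -4 h. The stages are far apart, with every -4 h array below every -18 h array, and the fall was 3.5-fold (log2 change -1.81, SE 0.13, adjusted p = 5.1e-10). *Pglym78*, which moves the phosphate of phosphoglycerate, gave 4591, 2275 and 5368 at -18 h and 901, 1048 and 1391 at -4 h. Replicate 2 was the low array at -18 h but still lay above all -4 h arrays, and the fall was 3.49-fold (SE 0.22, adjusted p = 2.4e-06). *Eno*, which makes phosphoenolpyruvate, stood at 5738, 3044 and 6864 and then at 1221, 2015 and 2024. Its groups did not overlap either, and it fell 2.89-fold (SE 0.21, adjusted p = 1.2e-05).

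*Gapdh1*, the oxidizing step of the pathway, gave 7463, 6269 and 7705 at -18 h and 3946, 3710 and 4412 at -4 h. It fell 1.77-fold with no overlap (SE 0.12, adjusted p = 2.5e-05). *Pgk*, the first ATP-forming step, fell 1.86-fold from 2930 ± 996 to 1530 ± 374 (adjusted p = 0.0021). The lowest -18 h array of *Pgk*, replicate 2 with 1809, lay just above the highest -4 h array at 1763. *Pgi*, which interconverts the hexose phosphates, fell 2.07-fold from 1320 ± 536 to 632 ± 291 (adjusted p = 0.026), with arrays that overlapped. Its call was lost without -18 h replicate 3 (adjusted p = 0.12).

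*Pfk*, the committed and regulated step of glycolysis, was the gene that did not pass, at 1030 ± 172 and 776 ± 339 (log2 change -0.47, 95% interval -0.86 to -0.08, adjusted p = 0.08). Its -4 h arrays stood at 1167, 591 and 568. Replicate 1 alone was at the larval level, and without that array *Pfk* was called lower as well (log2 change -0.81, adjusted p = 1e-04). Without both deviating larval arrays, all 7 genes were called lower, with *Pfk* at -0.95 and *Pglym78* at -2.04. In a fit to the 6 arrays of the 2 larval stages alone, 3 of the 7 were called, since *Pgi* (adjusted p = 0.36), *Pgk* (0.28) and *Eno* (0.12) did not pass there.

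At puparium formation, 0 against -4 h, none of the 7 genes was called in the limma fit, where 7.98% of all tested probe sets were, and 1 of them, *Pfk*, had an unadjusted p under 0.05 (log2 change -0.44, adjusted p in limma 0.13). The median of the 7 was -0.04, as it was for all tested probe sets. The 95% intervals were -0.31 to 0.23 for *Ald1*, -0.36 to 0.14 for *Gapdh1* and -0.42 to 0.41 for *Pgk*, so that a change of 1.5-fold lay outside them. For *Pgi*, *Pglym78* and *Eno* they reached to 0.96, -0.64 and 0.62, and so do not exclude such a change. All of these intervals use a spread pooled over stages. The -4 h arrays varied more than those of 0 h, so the intervals may be too narrow here. At 0 h the arrays of *Pfk* lay between 500 and 561, the lowest stage for this gene, and all below its -4 h arrays. *Pfk* was called lower without -4 h replicate 2 (log2 change -0.6, adjusted p = 0.05) or -4 h replicate 3 (-0.62, adjusted p = 0.038), which leaves 1 call in place of 0. Both of these fits keep -4 h replicate 1, the deviating array, at 1167. Replicates 2 and 3 stood at 591 and 568, near the 0 h arrays, and the fit without replicate 1 did not call *Pfk* here.

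From 0 to 6 h, the interval of falling 20E titer, 4 of the 7 genes rose and none fell, where 4.6% of all tested probe sets rose and 6.48% fell. The median of the 7 was 0.84 (log2), against 0 for all tested probe sets. The genes called were *Pgi*, *Pfk*, *Pglym78* and *Eno*, while *Ald1*, *Gapdh1* and *Pgk* did not pass.

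*Pfk* gave 500, 561 and 557 at 0 h and 1129, 893 and 1246 at 6 h. The arrays were well apart, and *Pfk* was 2-fold higher (log2 change 1, SE 0.19, adjusted p = 0.00037). *Pglym78* gave 987, 1020 and 900 at 0 h and 1999, 1428 and 2162 at 6 h, with replicate 2 the low array at 6 h (log2 change 0.92, SE 0.22, adjusted p = 0.0043). *Eno* rose from 1940 ± 168 to 3510 ± 543 (log2 change 0.84, adjusted p = 0.0063). *Pgi* rose from 716 ± 54.2 to 1360 ± 466 (log2 change 0.87, adjusted p = 0.085), a weak call that was lost when any single 0 h array was left out (adjusted p = 0.14 to 0.21), without 6 h replicate 1 (0.31) or 3 (0.19), and with no filter on low probe sets (0.11). At 6 h, replicate 2 was the lowest array for all 7 genes.

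*Gapdh1* stood at 3720 ± 177 at 0 h and 3720 ± 708 at 6 h (log2 change -0.02, 95% interval -0.27 to 0.24). *Ald1* (0.22, interval -0.04 to 0.49) and *Pgk* (0.32, interval -0.09 to 0.73) did not pass. The interval of *Gapdh1* and that of *Ald1* exclude a change of 1.5-fold, and that of *Pgk* does not. Differences between genes in this rise were not tested.

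After pupariation *Pfk*, *Pgk*, *Pglym78* and *Eno* had their highest stage mean at 4 h. *Pfk* was the gene called at a single step of the rise, 4 against 2 h, 1 of 7 where 1.49% of all tested probe sets rose. *Pfk* rose from 755 ± 14.1 to 1170 ± 24.2 (log2 change 0.63, SE 0.19, adjusted p = 0.078). Its arrays were tight at both stages, but the call was lost when any 1 of these 6 arrays was left out (adjusted p = 0.18 to 0.23). *Eno* stood at 2260, 2340 and 2642 at 2 h and at 3371, 3548 and 3733 at 4 h, a difference of 0.56 with no overlap that did not pass (adjusted p = 0.28). *Pglym78* had stage means of 969 ± 62.1, 1430 ± 217 and 2010 ± 42.4 at 0, 2 and 4 h, and neither step passed (adjusted p = 0.37 and 0.49). In the limma fit none of the 7 genes was called at 2 against 0 h, 6 against 4 h, 8 against 6 h or 12 against 10 h, where 2.64%, 3.33%, 5.26% and 4.88% of all tested probe sets were, and 2, 0, 1 and 0 of the 7 had an unadjusted p under 0.05.

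**Figure D2:**
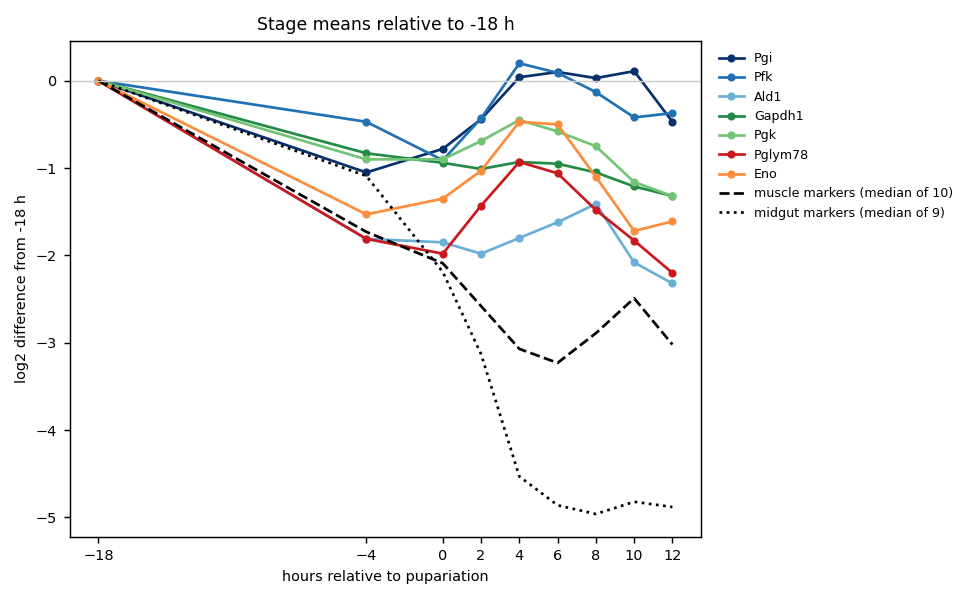
Stage means of each glycolytic gene as log2 difference from -18 h, against hours relative to pupariation (to scale), with the medians of 10 muscle and 9 midgut marker genes as dashed and dotted lines. *Pgi* and *Pfk* are near 0 at 4 and 6 h and *Ald1* is at -1.8 and -1.62, while the muscle median goes to -3.07 and -3.23.

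How far the genes returned was read from 6 against -18 h, a comparison added after the stage means had been seen. *Ald1* (log2 difference -1.62, adjusted p = 7.3e-10), *Gapdh1* (-0.95, adjusted p = 1.5e-06) and *Pglym78* (-1.06, adjusted p = 0.00052) were lower, 3 of 7, where 13.6% of all tested probe sets were. *Pgi* (0.1, 95% interval -0.59 to 0.78) and *Pfk* (0.09, interval -0.3 to 0.48) did not pass, and the interval of *Pgi* does not exclude 1.5-fold in either direction. *Pgk* (-0.58) and *Eno* (-0.5) stayed under the fold limit, and 5 of 7 genes were called lower without -18 h replicate 2.

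From 6 to 12 h, over the second 20E pulse, 4 of the 7 genes fell and none rose, where 4.82% of all tested probe sets fell and 5.06% rose. The median of the 7 was -0.69 and that of all tested probe sets 0.03. *Pglym78* fell 2.2-fold, from 1860 ± 385 to 838 ± 92.7 (SE 0.22, adjusted p = 0.00064), and its 12 h arrays at 912, 868 and 735 were below all 6 h arrays. *Eno* fell 2.15-fold, from 3510 ± 543 to 1620 ± 63.8 (adjusted p = 0.00055). The 12 h arrays of *Eno*, at 1626, 1682 and 1555, were below all of its 6 h arrays too.

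*Pgk* fell 1.67-fold (1880 ± 286 to 1130 ± 151, adjusted p = 0.012) and *Ald1* 1.62-fold (2840 ± 434 to 1740 ± 102, adjusted p = 0.00036). The lower level of *Gapdh1* (log2 change -0.37, adjusted p = 0.042) stayed under the fold limit. *Pfk* (-0.45, adjusted p = 0.12) and *Pgi* (-0.57, adjusted p = 0.33) did not pass.

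Within this interval the stage means of *Eno* were 3510 ± 543, 2300 ± 174 and 1500 ± 91.4 from 6 to 10 h. The step from 8 to 10 h was called (1.53-fold, adjusted p = 0.096), but 24 of 37 alternative fits lost that call. The step from 6 to 8 h was as large (log2 change -0.6, adjusted p = 0.11), and 10 of 37 alternative fits called it. From 8 to 10 h, *Eno* and *Ald1* fell, 2 of the 7 genes, where 3.38% of all tested probe sets did. *Ald1* stood at 3355, 3328 and 3142 at 8 h, its highest stage mean after pupariation. It gave 2235, 2013 and 1918 at 10 h, a called fall of 1.6-fold (SE 0.13, adjusted p = 0.00095) that all 37 alternative fits also called. *Gapdh1* had stage means of 3720 ± 708, 3440 ± 229, 3080 ± 209 and 2850 ± 293 from 6 to 12 h, with overlapping arrays and no step that passed. *Pgi* held 1260 ± 199 at 8 h and 1340 ± 264 at 10 h before 908 ± 243 at 12 h (log2 change -0.58, adjusted p = 0.42).

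**Figure D3:**
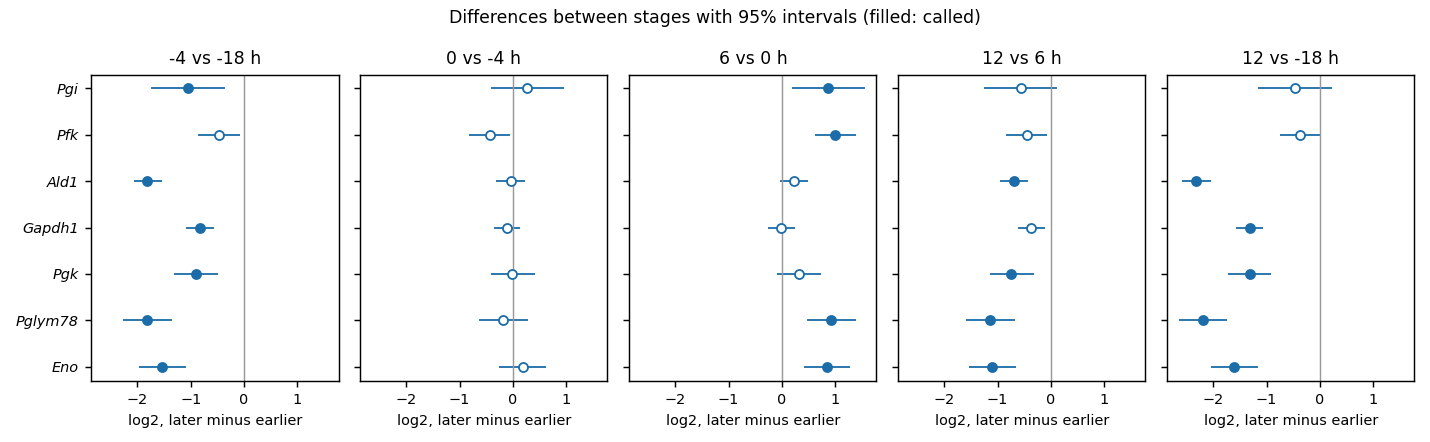
Log2 difference (later minus earlier stage) of the 7 glycolytic genes in 5 comparisons, with 95% intervals from the limma fit; filled points were called. In the first panel 6 of 7 points are filled and left of 0, in the third 4 are filled and right of 0.

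Over the whole period, 12 against -18 h, 5 of the 7 genes were lower and none higher, where 11.7% of all tested probe sets were lower and 17.4% higher. The median was -1.32, against 0 for all tested probe sets. *Ald1* was 4.99-fold lower (8700 ± 636 and 1740 ± 102, adjusted p = 1.3e-12), *Pglym78* 4.58-fold (4080 ± 1610 and 838 ± 92.7), *Eno* 3.04-fold (5220 ± 1960 and 1620 ± 63.8), and *Gapdh1* and *Pgk* 2.5-fold each. *Pgi* (log2 difference -0.47, adjusted p = 0.25) and *Pfk* (-0.37, adjusted p = 0.11) did not pass. Without -18 h replicate 2, the low larval array, *Pgi* was called as well (-0.88, adjusted p = 0.034). Of the marker genes, 9 of 10 for muscle and 9 of 9 for midgut were lower at 12 than at -18 h, and their part in this difference was not tested.

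Among themselves the 7 genes were alike to different degrees. Over the 9 stage means, which share their arrays, the correlation of the 21 pairs ran from 0.09 to 0.96 with a median of 0.73, given as a description. *Pgk*, *Pglym78* and *Eno*, which act in sequence, were the most alike (0.95 and 0.96), and *Ald1* went with *Gapdh1* (0.94). *Pgi* was closest to *Pfk* (0.73) and least like *Gapdh1* (0.09).

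Whole animals hold many tissues, so markers of muscle, midgut and fat body were read beside the enzymes. Every measured marker exceeded the floor in some array of each stage, except 1 muscle gene at 10 h. In the annotation used, 5 of 15 muscle, 1 of 10 midgut and 3 of 7 fat body markers listed had no probe set of their own. Of 10 measured muscle genes 7 fell from -18 to -4 h and none rose, with a median of -1.73, and their summed intensity ranged over 51830 to 60790 in the -18 h arrays and 15620 to 20990 in the -4 h arrays. At 6 h these sums were 9085 to 9525, and the pupal arrays gave 11060 to 12010. The myosin light chain genes *Mlc1* and *Mlc2* ranged over 36.6- and 38.2-fold and the troponin T gene *up* over 11.6-fold. Midgut proteases fell in 7 of 9 cases over the same step, with sums of 122500 to 127100 in the -18 h arrays, 59160 to 73790 in the -4 h arrays and 3722 to 4272 in those of 6 h. Of the 4 measured fat body genes none was called by limma at -4 against -18 h (1 had an unadjusted p under 0.05). Their summed intensity was 45570 to 54270 at -18 h and 51320 to 52410 at -4 h. At 0 h *Lsp2* (19100 ± 437) and *Fbp1* (18900 ± 225) lay near the highest values of those arrays, 19129 to 19500. Changes of such bright probe sets may be compressed, which was not tested.

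In the larva the enzymes thus fell beside the muscle and midgut markers, and the part of these tissues in the fall was not tested. From 0 to 6 h, when 4 enzymes rose, 6 of the 10 muscle genes and 8 of the 9 midgut genes fell and none of either list rose. From 6 to 12 h, when 4 enzymes fell, 2 muscle genes rose and 1 fell, and no midgut gene was called by limma (0 with an unadjusted p under 0.05). Of the fat body genes, *Fbp1* fell 1.61-fold over this interval (19700 ± 181 to 12200 ± 803, adjusted p = 3.8e-08), the 1 call of 4, while *Lsp2* was 0.36 (log2) higher (adjusted p = 0.00041) and under the fold limit. The part of these tissues in the later changes was not tested either. The correlation of single enzymes with the muscle median over the 9 stages was 0.86 for *Gapdh1* and 0.77 for *Ald1*. It was 0.52 for *Pglym78*, 0.51 for *Pgk* and 0.34 for *Eno*, but -0.1 for *Pfk* and -0.15 for *Pgi*. With the midgut median it was, in the same order, 0.79, 0.6, 0.37, 0.47, 0.26, -0.28 and -0.51.

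The neighbouring steps of sugar metabolism were followed in lists of measured genes. Of all tested probe sets, 3.66% fell and 9.86% rose from -18 to -4 h. At 12 against -18 h, 11.7% were lower and 17.4% higher. Pyruvate kinase *PyK*, *Gpo1* and *Pdha* had no probe set of their own in the annotation used. Of the 6 measured isozymes and pyruvate kinase copies none was called by limma at -4 against -18 h (1 had an unadjusted p under 0.05), with a median of 0.18. At 12 against -18 h *Pfrx*, which makes the allosteric activator of phosphofructokinase, was 1.74-fold higher (653 ± 176 and 1120 ± 214, adjusted p = 0.0015) and was the 1 call of this list. *Pglym87*, a second phosphoglycerate mutase gene, was not called over the stages (adjusted p = 0.34 in the F-test of limma). In that test CG2964 (adjusted p = 0.0055, range 1.49-fold) and CG12229 (adjusted p = 0.083, range 1.47-fold) were not called either, as they stayed under the fold limit.

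Of 12 measured genes of hexose entry, glycogen and trehalose, 3 fell and 1 rose from -18 to -4 h. Those outside the naming rule, given because they complete this count and so chosen after their values were seen, were *Pgm1*, phosphoglucomutase, which fell 2.27-fold (1050 ± 457 to 460 ± 208, adjusted p = 0.0074), and the trehalase gene *Treh*, which rose 1.93-fold (359 ± 188 to 649 ± 250, adjusted p = 0.063). The glycogen phosphorylase gene *Glyp*, which releases glucose-1-phosphate from glycogen, fell 3.16-fold (2380 ± 798 to 740 ± 205, adjusted p = 2.9e-06), rose 1.58-fold from 0 to 6 h (adjusted p = 0.03) and fell 1.66-fold from 6 to 12 h (adjusted p = 0.017), called in each phase as *Eno* and *Pglym78* were. The glycogen synthase gene *Glys* also fell in the larva (1.89-fold, adjusted p = 0.00068). It then rose 2.89-fold from 6 to 8 h (410 ± 74 to 1180 ± 140, adjusted p = 1.4e-06).

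The trehalose transporter gene *Tret1-1* rose 2.13-fold from 0 to 6 h (980 ± 38.8 to 2130 ± 505, adjusted p = 0.00039), as did its other probe set (log2 change 1.24). *Tps1*, which makes trehalose, the main blood sugar of insects, rose 1.58-fold from 4 to 6 h (adjusted p = 0.0011). It had its highest stage mean at 8 h (924 ± 101), fell 1.65-fold from 8 to 10 h (adjusted p = 0.00023) and was 1.59-fold lower at 12 than at 6 h. The hexokinase gene *Hex-A* was 2.97-fold higher at 12 than at -18 h (152 ± 98.5 and 427 ± 164, adjusted p = 0.0051), and *Hex-C* was 1.6-fold lower, near the floor (107 ± 19.5 and 63 ± 12.6). Across this list 6 genes were higher and 4 lower at 12 against -18 h.

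Of the 4 genes of gluconeogenesis none was called by limma at -4 against -18 h (1 had an unadjusted p under 0.05). *Pepck1*, phosphoenolpyruvate carboxykinase, rose 1.65-fold from 0 to 6 h (4520 ± 790 to 7440 ± 890, adjusted p = 0.018), the 1 call of 4, and at 6 h was 2.13-fold above -18 h. The fructose-1,6-bisphosphatase gene *fbp*, which opposes *Pfk*, had its highest stage means at 4 h (780 ± 81.5) and 6 h (788 ± 211), and at 6 h stood 1.94-fold above -18 h (426 ± 177, adjusted p = 0.012). The pyruvate carboxylase gene *PCB* fell 1.74-fold at pupariation (adjusted p = 0.075), and *Pepck2* was not called over the stages (adjusted p = 0.069, range 1.37-fold).

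In the branch from triose phosphate and pyruvate, 2 of 8 genes fell from -18 to -4 h and none rose. *Gpdh1*, which makes glycerol-3-phosphate and recycles NADH, fell 2.31-fold (597 ± 288 to 253 ± 112, adjusted p = 0.018) and rose 2.98-fold from 6 to 12 h (453 ± 115 to 1380 ± 539, adjusted p = 0.0029), the interval in which 4 enzymes fell. *Mpc1*, a carrier of pyruvate into mitochondria, fell 1.52-fold (1420 ± 603 to 909 ± 266, adjusted p = 0.028). The kinase gene *Pdk*, whose product switches off pyruvate dehydrogenase, was 2.06-fold lower at 6 than at -18 h (764 ± 206 and 363 ± 34) and rose 1.5-fold by 12 h. *Gpdh2* stayed within 1.44-fold over the stages and was not called.

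Of 12 measured citric acid cycle and malate genes, 2 fell and 1 rose from -18 to -4 h, with a median of -0.12. The riser, named after its values were seen, was *Scsalpha1*, a succinyl-CoA synthetase subunit (1.64-fold, adjusted p = 0.0019). *Idh3g*, a subunit of the NAD-dependent isocitrate dehydrogenase, fell 2.31-fold (2820 ± 181 to 1220 ± 94.7, adjusted p = 3.7e-10) and was still 2.74-fold below -18 h at 12 h. *Men*, the NADPH-forming malic enzyme, fell 2.02-fold in the larva (adjusted p = 0.0089) and then rose 4.49-fold from 0 to 6 h (1130 ± 43.6 to 5080 ± 618, adjusted p = 1.7e-06). A dimmer probe set of *Men* was called in neither interval (log2 change -0.22 and 0.29), so the probe sets of this gene disagree. The other gene to rise in that interval was the NADP-dependent *Idh* (1.52-fold). In the same interval *Ogdh*, a subunit of oxoglutarate dehydrogenase also named after its values were seen, fell 2.51-fold (adjusted p = 0.021). Cytosolic *Mdh1* ended 3.18-fold lower at 12 than at -18 h. Of 5 pentose phosphate genes none was called by limma in the larval step (1 had an unadjusted p under 0.05). *Taldo* fell 1.55-fold from 0 to 6 h (adjusted p = 0.022) and *Pgls* was 1.68-fold lower at 12 than at -18 h, and *Rpi* and *Rpe* were called at no comparison.

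**Figure D4:**
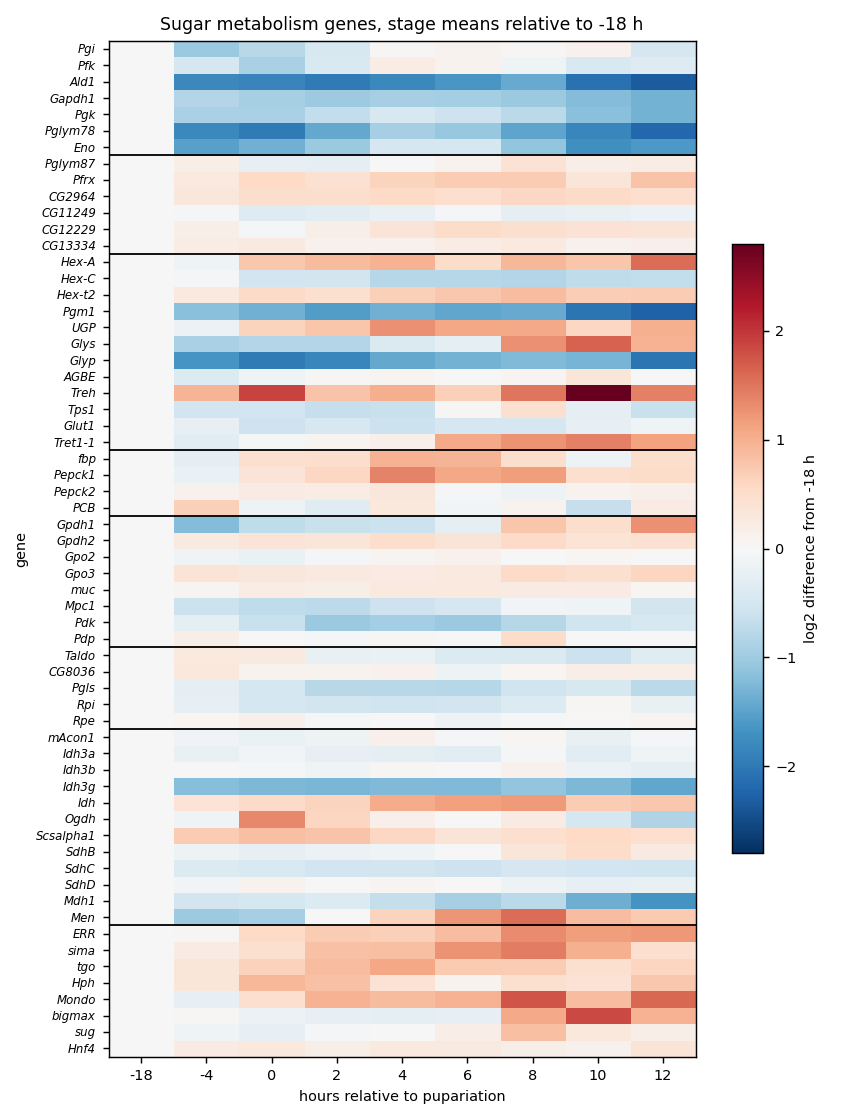
Log2 difference of each stage mean from -18 h (colour) for the 7 glycolytic genes (top block) and, in blocks divided by lines, the isozymes, hexose and glycogen genes, gluconeogenesis, glycerol phosphate and pyruvate branch, pentose phosphate pathway, citric acid cycle and regulators, against hours relative to pupariation. *Glyp* shares the lower levels of the top block (-2.05 at 12 h), and *Glys* and *Tret1-1* are higher at 10 h (1.66 and 1.42).

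Of the 8 measured regulators of sugar metabolism none was called by limma from -18 to -4 h (2 had an unadjusted p under 0.05). Of all tested probe sets 3.66% fell and 9.86% rose there, so no call among 8 genes is not far from these shares. At 12 against -18 h, 5 of the 8 were higher, where 17.4% of all tested probe sets were. The count of 5 was 3 under quantile normalization or scaling by the array median, and it includes *Hph*, a prolyl hydroxylase gene named after its values were seen, whose arrays overlapped (adjusted p = 0.099) and whose other probe sets gave -0.17 and -0.14 (log2). Estrogen-related receptor *ERR*, a nuclear receptor known in *Drosophila* to switch on glycolytic genes in the embryo, was 2.31-fold higher at 12 than at -18 h (187 ± 67.9 and 415 ± 80.4, adjusted p = 0.00013). It stood 0.04 (log2) above -18 h at -4 h and 1.33 above at 8 h. *sima*, the hypoxia-inducible factor alpha subunit, rose 1.75-fold from 0 to 6 h (126 ± 18 to 219 ± 13.8, adjusted p = 0.00021) and fell 1.72-fold from 6 to 12 h (adjusted p = 0.00033). *Mondo* and *bigmax*, partners in sugar sensing, rose 1.73-fold (adjusted p = 0.081) and 2.46-fold (adjusted p = 0.00017) from 6 to 8 h, and so did *sug* (1.59-fold), a zinc finger gene induced by dietary sugar.

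Outside these lists, the genes whose 9 stage means were most like the mean course of the 7 enzymes were *rtet* (r = 0.939), *Cyp4d14* (0.912), *sesB* (0.851), *Hexo2* (0.85), CG7465 (0.835) and *l(3)mbn* (0.805), out of 2800 candidates called in the F-test whose stages spanned 2-fold or more. *sesB* is the mitochondrial ADP/ATP carrier and *rtet* is named as a tetracycline resistance transporter homologue. In this order, their log2 differences at -4 against -18 h were -1.06, -0.65, -0.59, -0.77, -2.7 and -1.53. Of the 2800 genes, 2 (0.0714%) reached a correlation of 0.9, and these r values are a description over stages that share arrays with the enzymes.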

How the data were processed

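The deposited table holds 1 linear intensity per probe set and array of the Affymetrix *Drosophila* Genome Array. The authors normalized the raw data and derived these intensity values with dChip 1.2, without pooling replicates; whether mismatch probes were used is not stated there. Probe sets were named through their gene number (12394 of 12443 with 1 symbol matched, Release 6 plus ISO1 MT names). Intensities were set to a floor at the 10th percentile (60.26), log2 was taken, and probe sets that exceeded it in every array of 1 stage or more were tested (12854, leaving out 1112). limma 3.58.1 in R 4.3.3 was fitted to 27 arrays with stage as factor (18 residual and 3.55 prior degrees of freedom), checked on simulated data. Adjusted p-values are Benjamini-Hochberg over all tested probe sets. The methods name SAM at a false discovery rate under 10%, for which limma was used here. Folds are ratios of geometric means. The methods describe independent triplicates, and p-values measure the spread between such samples, which is pooled over stages although the larval ones varied more. The number of arrays limits the precision. The genes, lists and comparisons were chosen with earlier results of these data known. All 7 enzymes were named. From each list came up to 4 genes with the lowest F-test p, plus *PyK*, *Hex-A*, *Hex-C*, *Gpdh1*, *Gpo1*, *Pdha*, *Mpc1* and *ERR*. Genes with the most similar course were ranked by Pearson's r of stage means. The same ranking for *Ldh* was not run. A gene with several probe sets was represented by the brightest. Figures were drawn with matplotlib 3.10.9. Alternatives were fits to the arrays of the stages compared alone, quantile normalization, scaling by the array median, a higher floor (20th percentile) and a pseudocount of 16 in place of the floor. Others were testing without a filter or with a stricter one (25th percentile), array weights, a replicate block, and leaving out each array or both deviating larval ones. A setting with all probe sets of the enzymes repeated the main fit, since each enzyme has 1, and could not differ from it. The comparison of 6 with -18 h was added after seeing the data.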

Additional observations from a re-analysis of the deposited data

How the results depend on the processing

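No called difference of an enzyme changed sign. Of 925 alternative values of the 25 called differences, 884 kept the call and 41 lost it. Of the 2183 alternative values of uncalled differences, 41 had another sign. Many of these fits left out 1 array of a stage not compared. Such a fit cannot move the difference itself, only its error and adjusted p, so the kept count overstates how firm the calls are. The F-test called 7 of 7 genes throughout. At -4 against -18 h 6 genes were called, 3 when just those 6 arrays were fitted and 5 to 7 with 1 array left out. At 0 against -4 h the counts were 0 to 1 with 1 array left out. At 6 against 0 h they were 3 to 4, at 12 against 6 h 4 to 5 and at 12 against -18 h 5 to 6 over all alternatives. At 6 against -18 h, a comparison chosen after seeing the data, 3 genes were called, 5 with array weights, 5 without both deviating larval arrays and 3 to 5 with 1 array left out. Calls in the 2 h steps numbered 3, and 6 under quantile normalization, 5 with array weights, 1 with no filter and 1 to 4 with 1 array left out. Calls in the gene lists moved as well. At -4 against -18 h they were 4 (1 to 5 over all alternatives) for hexose entry and storage, 2 (0 to 2) for the glycerol phosphate branch, 3 (1 to 4) for the citric acid cycle, 0 (0 to 1) each for gluconeogenesis and the regulators, 7 (6 to 8) for muscle and 7 (4 to 8) for midgut, and 0 throughout for isozymes, pentose phosphate genes and fat body. The lowest counts of the first 3 came from the fit to the 6 larval arrays, and the glycerol phosphate branch had 1 call without -4 h replicate 2 or 3. At 12 against -18 h the regulators gave 5 (3 to 6), with 3 also without -18 h replicate 2 or 3 or 12 h replicate 1 or 2, the citric acid cycle 5 (3 to 6), with 3 without -18 h replicate 1 or 3, and hexose entry and storage 10 (7 to 10). The cause of these shifts was not tested. Replicate numbers are shared by the stages. In the larval step, -4 against -18 h, the arrays of number 1 deviated in opposite directions (correlation -0.82). Those of number 2 did so too (-0.72), while those of number 3 deviated together (0.48). The replicate 1 arrays deviated from their stage means together in 10 of 12 comparisons (correlation 0.38 to 0.61), but the other numbers had a correlation above 0.1 in 8 of 24 cases, no comparison had all 3 above it, and in none did every array correlate best with its own number, so the numbers were not taken to pair the arrays. With the replicate number as a block, the counts were 6, 0, 4, 4, 5, 3, 3 and 7, for the larval step, pupariation, the early prepupa, 6 to 12 h, pupa against larva, 6 against -18 h, the 2 h steps and the F-test, each as without the block.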
